A study of Homo sapiens with 6 samples.

Results

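The genes described here encode 10 components of interleukin-6 (IL6) and interleukin-1 (IL1) signalling, namely the cytokines IL6 and LIF, the receptor chains IL6R, IL6ST, LIFR, OSMR, IL1R1 and IL1RAP, the transcription factor STAT3 and its feedback inhibitor SOCS3. They were chosen by name, with earlier results of these arrays known, and are read from probes with exactly 1 gene symbol. Where a gene has several such probes, the brightest on average across the 6 arrays was to be used. All 10 were found among the 18417 genes measured, each through 1 probe, so brightness decided nothing for them. The cells were H441, an established line derived from a human lung adenocarcinoma, grown here in culture. Its cells were transfected by lipid reagent with a scrambled control siRNA (3 arrays) or with a pool of siRNAs against ETS2, a transcription factor of the ETS family (3 arrays). RNA was isolated 48 h after transfection. The labels number the arrays within each group without saying what a number stands for, and each array was taken as its own transfection. The groups share the cell line, the reagent and the time and differ in the siRNA. The comparison asks which transcripts differ when ETS2 is lowered, with 1 siRNA pool against 1 control in 1 cell line.

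IL6 and LIF belong to a family of secreted cytokines that signal through a common receptor chain, gp130, the product of IL6ST. IL6 first binds IL6R, LIF acts through LIFR and oncostatin M through OSMR, and each of these complexes contains gp130. The kinases bound to the receptor then phosphorylate STAT3, which enters the nucleus and switches on its targets, among them SOCS3, whose product shuts the receptor down. IL1 binds IL1R1, which signals only once it has recruited the accessory protein IL1RAP; IL1RAP serves the receptors for IL33 and IL36 in the same way. IL1 is a strong inducer of IL6, and lung epithelial cells make and sense both.

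Of the 10 genes, 3 fell after ETS2 siRNA and 0 rose, with a gene called changed at an adjusted p under 0.05 (limma, Benjamini-Hochberg over all genes). They were IL6, IL6ST and IL1RAP, and each stood near 70 to 73% of its control level. The other 7 did not pass the test, and their intervals are given with their values. Over all genes, 4.91% changed, with 2.63% lower and 2.28% higher. IL6 was known from earlier results of these data to fall and the list was drawn up with such results in view, so the share of 3 in 10 is a description of the list.

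The stretches upstream of the 3 genes that fell are shown because the siRNA targets an ETS factor and these are the windows in which the ETS core letters were searched. Each line gives the 250 bases before the RefSeq transcription start (GRCh38.p14), written 5′ to 3′ on the gene's strand, and capitals mark the ETS core GGAA on either strand (TTCC where it lies on the other).
IL6 at chr7:22726950-22727199, plus strand: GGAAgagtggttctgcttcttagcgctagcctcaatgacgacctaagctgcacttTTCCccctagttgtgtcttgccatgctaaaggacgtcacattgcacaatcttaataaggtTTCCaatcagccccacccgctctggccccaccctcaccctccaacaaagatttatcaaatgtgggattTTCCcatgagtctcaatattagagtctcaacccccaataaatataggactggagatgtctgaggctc
IL6ST at chr5:55994964-55995213, minus strand: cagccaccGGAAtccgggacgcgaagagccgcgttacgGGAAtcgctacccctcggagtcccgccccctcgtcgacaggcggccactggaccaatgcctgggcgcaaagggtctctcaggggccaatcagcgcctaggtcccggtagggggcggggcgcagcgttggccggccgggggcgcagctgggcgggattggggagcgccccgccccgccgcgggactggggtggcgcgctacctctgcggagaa
IL1RAP at chr3:190513835-190514084, plus strand: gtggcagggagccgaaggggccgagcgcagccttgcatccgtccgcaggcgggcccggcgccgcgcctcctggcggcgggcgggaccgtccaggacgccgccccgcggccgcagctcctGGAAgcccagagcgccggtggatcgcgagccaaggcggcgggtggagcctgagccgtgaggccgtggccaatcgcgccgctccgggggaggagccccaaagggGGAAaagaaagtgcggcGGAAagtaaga

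The core occurs 4 times before IL6, 2 times before IL6ST and 3 times before IL1RAP. Such short letters are common: GGAA on either strand was in 92.7% of the 35116 upstream windows of the RefSeq table, with a median of 3 per window, and in all 15 windows of the 9 members that the table holds. The longer ETS letters CCGGAA were in 14.5% of all windows. IL6ST has them once, from 244 to 239 bases before its start, where they take in a GGAA already marked, and IL6 and IL1RAP have none. Members that did not pass the test hold such letters too: CCGGAA occurs 3 times in 1 of the SOCS3 windows and once before STAT3, and GGAA occurs 7 times before OSMR and 7 times in that SOCS3 window. In the IL6 window the kappa B consensus, to which NF-kB binds, was met by GGGATTTTCC from 73 to 64 bases before the start; its last letters are also one of the marked TTCC. That consensus was in 5.21% of all windows. IL6 also has the CRE core letters TGACG 2 times, on either strand, against 21.2% of all windows that hold it at least once. The AP-1 letters TGANTCA (6.57% of all windows) and the STAT letters TTCNNNGAA (6.57%) were in none of the 3 printed windows, and the latter were in 3 of the 15 members' windows, belonging to LIFR and IL1R1. All motifs were searched on both strands. These are letters in a window; binding was not measured, nor which start H441 cells use.

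ETS2 itself checks the labels. Its level was 9.79, 9.91 and 9.79 on the control arrays and 8.87, 8.70 and 8.78 after ETS2 siRNA, and the groups did not overlap. Values throughout are log2 levels from RMA, the authors' array normalisation, and a difference is ETS2 siRNA minus control. The difference for ETS2 was -1.05 (SE 0.0565, limma adjusted p = 0.000254), which left 48.4% of the control level. The 6 arrays were alike in scale, with medians over genes from 8.07 to 8.10. A gene was taken as above background where a group mean exceeded 6.67, the 95th percentile of 341 olfactory receptor genes. Those genes were assumed to be mostly silent in these cells, which was not tested. By this cut 13043 genes were above background, including all 10 members. Of the markers fixed for H441 as lung adenocarcinoma epithelium, 9 of 9 measured were above that floor. So were 6 of 11 leukocyte, 6 of 10 fibroblast and 2 of 8 endothelial markers, with PTPRC, CD3E, PDGFRA, DCN, PECAM1, VWF and CDH5 below it and CD68 (control mean 11.29), KDR (9.80), LUM (9.03), COL1A1 (8.95) and TYROBP (8.10) well above it. Levels of different genes are not compared, since each probe has its own brightness.

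Of the ligands, IL6 was lower and LIF was not. IL6, the cytokine that drives the acute-phase response, read 8.12, 8.24 and 8.32 on the control arrays and 7.78, 7.80 and 7.73 after ETS2 siRNA. The highest treated array lay below the lowest control array. The mean went from 8.23 ± 0.10 to 7.77 ± 0.04 (SD, n = 3), a difference of -0.46 (SE 0.0556, 95% interval -0.58 to -0.33, limma adjusted p = 0.00509) that left 72.9% of the control level. LIF, leukaemia inhibitory factor, read 10.02, 10.05 and 10.12 in control cells and 10.12, 10.03 and 10.03 after ETS2 siRNA. Its groups overlapped almost entirely, and the difference of -0.0033 had a 95% interval that ran from 92.7% to 107% of the control level (limma adjusted p = 0.982). In bulk RNA, fewer cells that make a transcript and less of it per cell cannot be told apart.

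**Figure D1:**
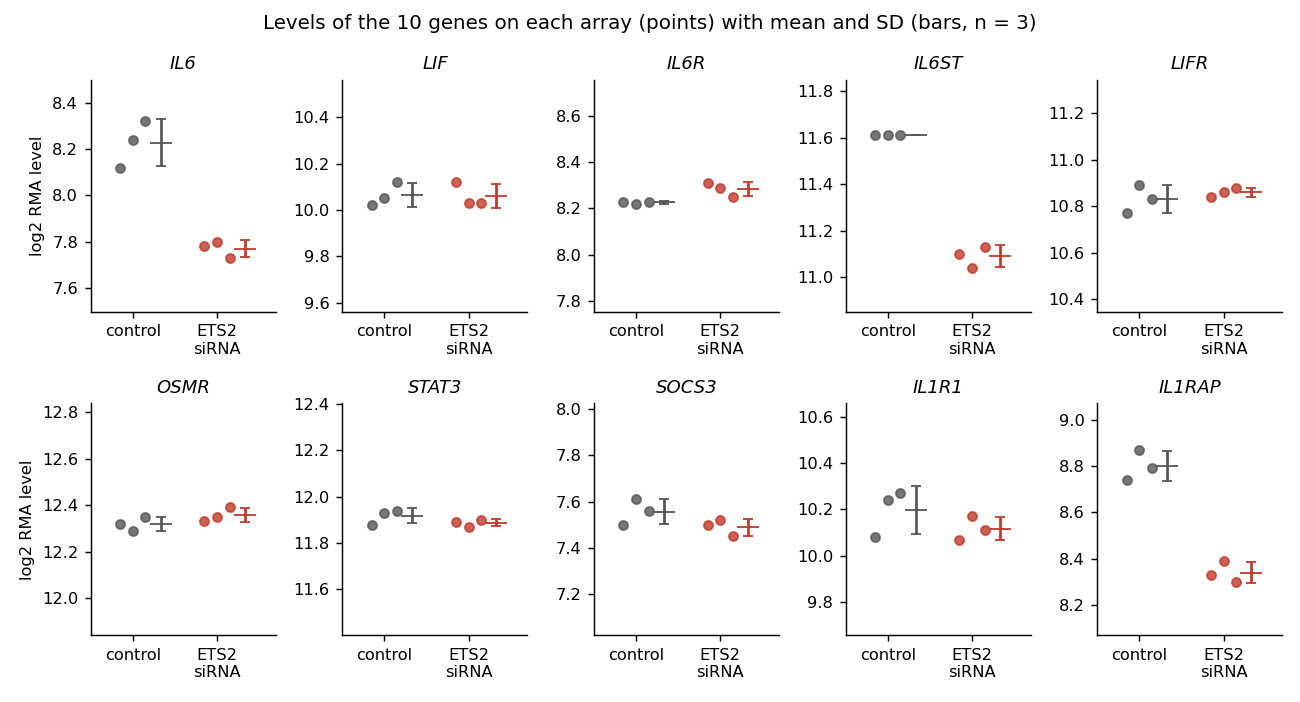
Log2 RMA level (vertical axis, each panel spanning 1 log2 unit) of the 10 genes on the 3 control arrays (grey) and the 3 ETS2 siRNA arrays (red), with the mean and SD of each group beside the points. IL6, IL6ST and IL1RAP sit lower on every treated array than on any control array, whereas the points of the other genes overlap or nearly touch.

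The shared chain IL6ST fell, and the chains that pair with it did not pass the test. IL6ST stood at 11.61 on each of the 3 control arrays, to the 2 decimals of the deposited values, and at 11.10, 11.04 and 11.13 after ETS2 siRNA. Each treated array was thus lower by about as much, and the groups were far apart for their spread. The difference was -0.52 (SE 0.0396, 95% interval -0.61 to -0.43, limma adjusted p = 0.00071), which left 69.7% of the control level. The RefSeq annotation also lists IL6STP1, a pseudogene copy of IL6ST. Whether this probe also picks up signal from IL6STP1 was not tested, and any such signal could not be separated here from that of IL6ST.

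IL6R, the chain that binds IL6 itself, read 8.23, 8.22 and 8.23 in control cells and 8.31, 8.29 and 8.25 after ETS2 siRNA. Its treated arrays all lay above its control arrays, but by little: the difference of 0.057 did not pass the test (95% interval -0.029 to 0.14, limma adjusted p = 0.502). Groups that do not overlap are frequent in these arrays, at 23.1% of all genes, so that the 4 members without overlap (IL6, IL6ST and IL1RAP lower, IL6R higher) are to be read against that share. LIFR, the LIF-binding chain, read 10.77, 10.89 and 10.83 against 10.84, 10.86 and 10.88, and its treated values fell within the control range. OSMR, the oncostatin M chain, read 12.32, 12.29 and 12.35 against 12.33, 12.35 and 12.39. Their differences were 0.030 and 0.037, with intervals from 95.3% to 109% and from 96.4% to 109% of the control level (limma adjusted p = 0.797 and 0.704). A fall of the size seen for IL6ST lay outside the intervals of IL6R, LIFR and OSMR.

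Downstream of the receptor, neither STAT3 nor SOCS3 passed the test. STAT3 read 11.88, 11.93 and 11.94 in control cells and 11.89, 11.87 and 11.90 after ETS2 siRNA. The treated arrays lay within or just below the control range, and the difference of -0.030 had an interval from 92.2% to 104% of the control level (limma adjusted p = 0.761). These are transcript levels, and phosphorylated STAT3 was not measured. SOCS3, a transcript that STAT3 induces, read 7.50, 7.61 and 7.56 against 7.50, 7.52 and 7.45. Its groups met at 7.50 and overlapped, and its difference of -0.067 had an interval from 89.0% to 102% of the control level (limma adjusted p = 0.504).

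In the IL1 receptor, the accessory chain fell while the binding chain did not pass the test. IL1RAP read 8.74, 8.87 and 8.79 in control cells and 8.33, 8.39 and 8.30 after ETS2 siRNA. No treated array came near a control array. The mean went from 8.80 ± 0.07 to 8.34 ± 0.05 (SD, n = 3), a difference of -0.46 (SE 0.0476, 95% interval -0.57 to -0.35, limma adjusted p = 0.00234) that left 72.7% of the control level. IL1RAP is transcribed into membrane-bound and soluble forms, and its 1 probe does not separate them. IL1R1 read 10.08, 10.24 and 10.27 against 10.07, 10.17 and 10.11, so the groups overlapped and control replicate 1 was as low as the treated arrays. Its difference of -0.080 had an interval from 86.3% to 104% of the control level (limma adjusted p = 0.547). Without control replicate 1 it was -0.14, with an unadjusted 95% interval from -0.25 to -0.025, and was still not called (limma adjusted p = 0.205). The intervals of IL6, IL6ST and IL1RAP overlap one another, so no order among the 3 falls is given; by size they lay between ranks 25 and 45 from the lowest of the 18417 differences.

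**Figure D2:**
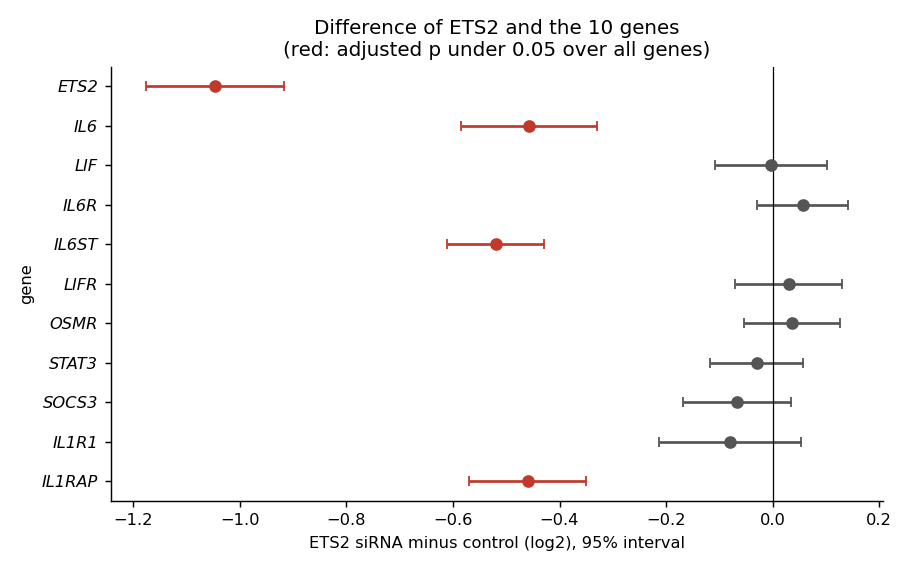
Difference between ETS2 siRNA and control (horizontal axis, log2) for ETS2 and the 10 genes, with limma's 95% intervals over 3 arrays per group; red points have an adjusted p under 0.05 over all genes. IL6, IL6ST and IL1RAP lie between -0.46 and -0.52, well short of ETS2 at -1.05, and the intervals of the other 7 genes include 0.

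The wider pathways were described through 11 lists by role, which hold 134 genes besides the members. Of these, 125 were measured, 93 lay above the background floor, 3 rose and 1 fell. Over all genes 2.28% rose and 2.63% fell, so the rises are near that share and the falls below it. The count of falls rests on 1 gene and leaves out the 3 members that fell. PELI1, a ubiquitin ligase that acts on the IRAK kinases below the IL1 and Toll-like receptors, was the 1 that fell. It read 9.04, 9.16 and 9.09 in control cells and 8.61, 8.74 and 8.64 after ETS2 siRNA, a difference of -0.43 (SE 0.0508, limma adjusted p = 0.00425), with no overlap. Its 6 values, once centred, were the closest of 13042 genes to those of IL1RAP, as given below. That likeness is mostly the size of the fall and adds no separate link between the 2 genes. The 3 that rose were IL18, a cytokine of the IL1 family, GSDMD, which encodes the pore-forming gasdermin D that caspases cleave, and RHBDF2, which helps the shedding protease ADAM17 mature. IL18 read 8.75, 8.78 and 8.79 in control cells and 8.95, 8.99 and 9.06 after ETS2 siRNA. GSDMD went from 7.79 ± 0.05 to 8.02 ± 0.07 and RHBDF2 from 8.32 ± 0.08 to 8.55 ± 0.04 (SD, n = 3). The differences of IL18, GSDMD and RHBDF2 were 0.23, 0.23 and 0.22 (limma adjusted p = 0.023, 0.0363 and 0.0403), and none of the 3 rises was called with control replicate 1 or 3, or with ETS2 siRNA replicate 2 or 3, left out (adjusted p from 0.056 to 0.148). GSDMD and RHBDF2 were also not called without ETS2 siRNA replicate 1 (0.120 and 0.128), with arrays scaled on ribosomal protein genes (0.0512 and 0.0511) or with the replicate block (0.0845 and 0.0874). With all probes tested, IL18, GSDMD and RHBDF2 were each not called (limma adjusted p = 0.0728, 0.103 and 0.111).

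On the IL6 side, the remaining ligands and receptors gave no call. Counts at an unadjusted p under 0.05 are to be read against 18.5% of all genes that pass it. Besides IL6, 0 of the other 7 measured IL6 family ligands changed by limma and 0 had an unadjusted p under 0.05. IL11 stood at 7.38 and 7.39 in control and treated cells, and oncostatin M (OSM) at 6.66 in both, below the floor. Of the 8 receptor genes, IL27RA came closest after IL6ST, at 0.14 (limma adjusted p = 0.146). None of the 12 measured JAK and STAT genes was called by limma, with 2 at an unadjusted p under 0.05, near that share: the kinase TYK2 at -0.17 (limma adjusted p = 0.0646) and STAT6 at 0.13 (0.203). The 15 inhibitors also gave 0 calls by limma and 4 at an unadjusted p under 0.05, again not far from that share. Of them 10 were on the lower side, against 8688 of all 18417 genes. The groups did not overlap in 6 of the 15, against 23.1% of all genes. Of these 6, 4 lay lower and 2 higher, against 11.5% and 11.6% of all genes. SOCS2 stood at -0.21 (limma adjusted p = 0.0588) and PIAS3, an inhibitor of STAT3, at -0.14 (0.0817). Among 29 STAT3 targets and acute-phase genes, 18 were above the floor and 0 changed by limma, 3 having an unadjusted p under 0.05, a smaller share than over all genes. The complement gene C3 stood at -0.15 (limma adjusted p = 0.130) and BCL3 at -0.17 (0.145), and the median of the list was 0.0067 beside 0.0033 over all genes. Proteins that control the decay of IL6 mRNA gave 0 calls of 10 by limma and 1 unadjusted p under 0.05, KHSRP at 0.12 (limma adjusted p = 0.122); ZFP36L1 was at 0.090.

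On the IL1 side, most ligands were too dim to read. Only 3 of 11 were above the floor, and IL1A (means of 5.15 and 5.14), IL1B (5.49 and 5.49) and IL33 (4.81 and 4.76) were below it in both groups. Of the 11 receptors and decoys, IL1RAP was the single call. IL18R1, which binds IL18, read 0.17 higher (limma adjusted p = 0.122), and IL1RL1, the IL33 receptor that also uses IL1RAP, 0.12 higher (0.216). Among the 16 measured genes listed for signal transduction below the IL1 receptor, whether they pass the signal on or restrain it, PELI1 fell and 0 rose by limma. Of the 16, 7 had an unadjusted p under 0.05, PELI1 among them, against 18.5% of all genes. Positive differences were found in 12, against 9363 of all 18417 genes. In 9 the treated arrays all lay above the control arrays. That is to be set beside 11.6% of all genes with such a separation upward. IRAK3, whose means of 4.39 and 4.53 lie below the floor, is counted both among these 9 and among the 7. These 9 included IKBKG, the regulatory subunit of the IkB kinase, at 0.21 (limma adjusted p = 0.0798), the TAK1-binding proteins TAB3 at 0.15 (0.0869) and TAB2 at 0.12 (0.116) and the kinase CHUK at 0.18 (0.132). The median of that list was 0.082. GSDMD was the 1 call among 9 inflammasome genes and RHBDF2 among 7 shedding genes, where ADAM17 and ADAM10, the proteases that release soluble IL6R, stood at 0.053 and -0.087 (limma adjusted p = 0.599 and 0.303).

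**Figure D3:**
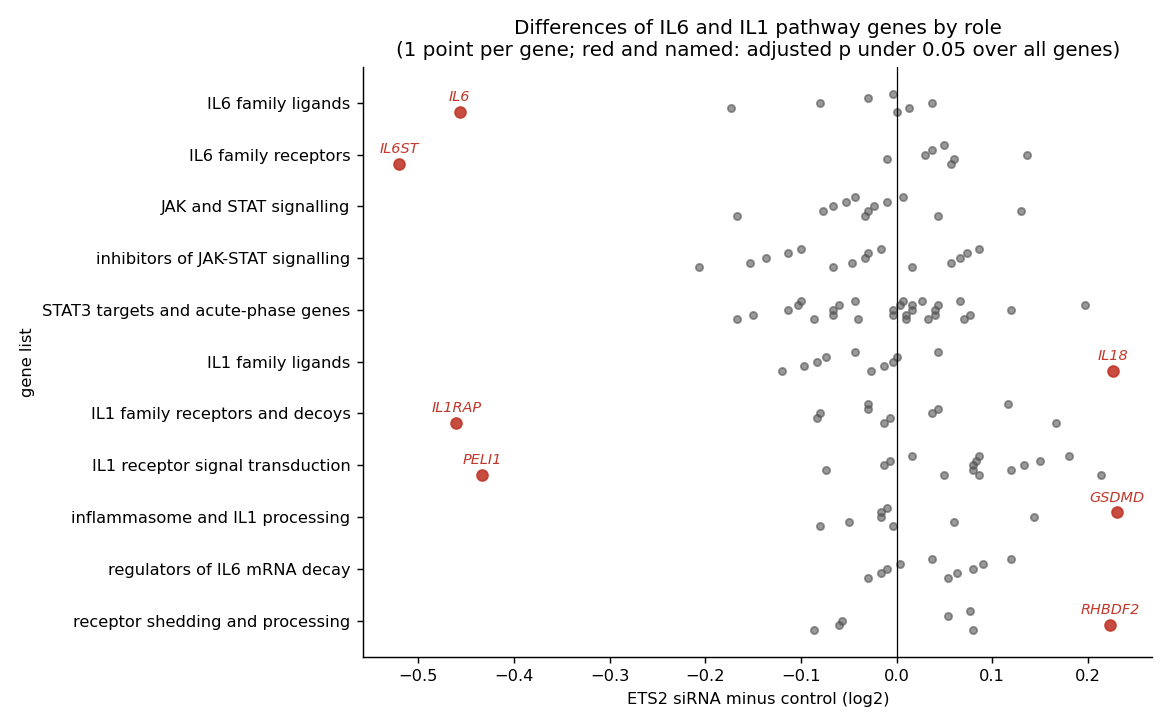
Difference between ETS2 siRNA and control (horizontal axis, log2) of every measured gene of the 11 role lists (vertical axis), 1 point per gene and list, with genes called changed over all genes in red and named. IL6, IL6ST, IL1RAP and PELI1 stand apart on the left at -0.43 to -0.52, the 3 called rises reach 0.22 to 0.23, and the points next farthest from 0 are IKBKG at 0.21 and SOCS2 at -0.21.

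The genes whose pattern over the 6 arrays was most like that of a member that fell were found by the root mean square difference of centred log2 values, among 13042 genes above the floor. Nearest to IL6 were FGF9, a fibroblast growth factor (0.0386), the sialyltransferase ST3GAL5 (0.0396) and CREBRF (0.0488). Their levels differed by -0.41, -0.41 and -0.43. Nearest to IL6ST were the thioesterase LYPLA1 (0.0297), the kinase NEK7 (0.0320) and the fatty acid elongase ELOVL1 (0.0324), which differed by -0.54, -0.47 and -0.56. Nearest to IL1RAP were PELI1 (0.0258), the cytochrome P450 gene CYP1B1 (0.0267) and FBXL20 (0.0275), each differing by -0.43. All 9 were called lower by limma, and likeness here is mostly the size of the fall, since 3 arrays of each group give it.

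Markers of cell state moved beside these genes in a few cases. SFTPB, a surfactant protein gene of lung epithelium, fell by 0.36 on the log2 scale (limma adjusted p = 0.0077) as the 1 call of 9 epithelial markers, whose mean level ran from 12.34 to 12.38 on control arrays and from 12.31 to 12.32 after ETS2 siRNA. In that list 4 of 9 had an unadjusted p under 0.05, against 18.5% of all genes. For 3 the treated arrays all lay lower (SFTPB, NAPSA at -0.13 and NKX2-1 at -0.11) and for 3 higher (CDH1, KRT7 and KRT19). Over all genes, 11.5% were separated in this way downward and 11.6% upward. ACTA2, a smooth muscle actin gene, rose by 0.23 (limma adjusted p = 0.0337) as the 1 call of 10 fibroblast markers, whose mean level ran from 6.66 to 6.76 and from 6.72 to 6.78. The call of ACTA2 was lost with ribosomal protein scaling (0.0505), with the replicate block (0.0656), with all probes tested (0.0975) and with any array but control replicate 2 left out (0.0888 to 0.116). Leukocyte markers (0 called of 11 by limma, 3 at an unadjusted p under 0.05) ran from 6.62 to 6.64 and from 6.59 to 6.67, and endothelial markers (0 of 8, 2 at an unadjusted p under 0.05) from 6.55 to 6.59 and from 6.52 to 6.58. Their part in the falls of IL6, IL6ST and IL1RAP was not tested.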

How the data were processed

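Levels were deposited as log2 values, 1 column per array (3 control, 3 ETS2 siRNA), made by the authors with RMA per the submitters' processing notes. RMA corrects background, brings arrays to a common distribution and summarises the probes of a transcript, so a shift shared by all genes is removed and folds of dim genes are compressed. The sources used here do not name RMA's version or settings, or the genome build. Of 33297 probes, 19460 carried 1 symbol in the platform annotation, 19429 of them matched by gene identifier to RefSeq (GRCh38.p14) with 0 symbols changed, and the brightest probe per gene left 18417 genes.

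Differences were fitted with limma 3.58.1 (R 4.3.3; lmFit, eBayes, two-sided, Benjamini-Hochberg) on the 6 arrays and all genes, with no replicate block, and the procedure was tested on simulated data. No exact permutation test was run on single genes, because its smallest p for 3 arrays against 3 is 0.1. The p-values measure the spread between arrays of 1 cell line, each taken as its own transfection, and the number of arrays limits the precision. Named are the members, ETS2, per list up to 4 called genes or else the 2 with the smallest p, and 3 nearest genes per called member; OSM, IL11, IL1A, IL1B, IL33, IL27RA, IL18R1, IL1RL1, ZFP36L1, IKBKG, TAB2, TAB3, CHUK, ADAM10, ADAM17 and most cell type markers were picked after values were seen. The members and lists were chosen with earlier results of these data known. The motifs were set after the values were seen. Alternatives were the replicate block, 3 rescalings, a filter on dim genes, the mean over probes, all probes, an intensity trend and each array left out. Of the 144 listed pathway genes, those without a probe of 1 symbol were not analysed here. Protein sequences were not used here.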

Additional observations from a re-analysis of the deposited data

How the results depend on the processing

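The falls of ETS2, IL6, IL6ST and IL1RAP were called under all 14 alternatives. IL6 ranged from -0.51 to -0.41 (adjusted p up to 0.0377, without ETS2 siRNA replicate 3), IL6ST from -0.54 to -0.50 (up to 0.00924) and IL1RAP from -0.49 to -0.43 (up to 0.0219), and 3 members were called, all lower, each time. The count over all genes, 904, was 1397 with dim genes left out, 1963 with an intensity trend and 399 probes when all probes were tested, and 213 to 735 with 1 array left out. The pathway genes other than members, 4 in the main analysis, numbered 9 with dim genes left out, 17 with an intensity trend, 2 when scaled on ribosomal protein genes, 1 with all probes tested and 1 to 5 with 1 array left out; PELI1 was called in each. LIF, not called anywhere, turned from -0.0033 to 0.0067 with arrays median-centred, 0.0056 with quantile normalisation and 0.012 to 0.025 with control replicate 3 or ETS2 siRNA replicate 2 or 3 left out, and ranged from -0.033 to 0.025 over the arrays left out. Over all alternatives the other members not called ranged from -0.14 to -0.043 (IL1R1), -0.095 to -0.040 (SOCS3), -0.048 to -0.018 (STAT3), 0 to 0.060 (LIFR), 0.020 to 0.052 (OSMR) and 0.043 to 0.073 (IL6R). The causes were not tested, beyond the change in the number of features or arrays that some of these settings make. No setting moved the median of all genes by more than 0.01.

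With the replicate number as a block, 604 genes were called, with IL6 at an adjusted p of 0.022, IL6ST at 0.00924, IL1RAP at 0.0105 and with PELI1 and IL18 the 2 other pathway genes called. The labels do not say that equal numbers were transfected together. For that reason the numbers were not taken as pairs in the main analysis. Deviations of same-numbered arrays correlated at 0.177, 0.181 and 0.0352, and those of arrays with different numbers at -0.198 to 0.0659. So few correlations cannot settle whether equal numbers share a condition. The arrays' signal over background limits the dim ligands IL1A, IL1B, IL33 and OSM, for which no change can be read.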
